A study of Homo sapiens with 12 samples.

Results

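Interferon-stimulated genes are the genes whose transcription rises when a cell senses an interferon, and they are described here in HaCaT cells, an immortalised human keratinocyte line. The set was a list of 49 gene symbols, matched to the first column of the count table. Of these, 48 had a row among the 22545 genes of the table and CMPK2 was not analysed here. After a filter on low counts 46 of the 14207 genes tested were members, and HERC5 and MX2 were too low to be tested.

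RNA sequencing gave 12 libraries in 4 groups of 3, all of HaCaT cells with the genotype label WT and the same batch label. The groups were cells with no treatment (untreated below), cells given M5, cells given M5 with lefamulin, and cells given M5 with retapamulin. The last 2 groups are called lefamulin and retapamulin below, and both compounds were always given together with M5. M5 usually names a cocktail of inflammatory cytokines used to give keratinocytes features of psoriasis, but the sources used here do not give its content. Lefamulin and retapamulin are antibiotics of the pleuromutilin class, which have the same tricyclic core and carry different side chains. Nor do they give doses, times or the solvent. The extraction text of the labels speaks of mouse epidermis, while the source label and the gene symbols are those of the human line. The labels do not say whether the 3 libraries of a group came from separate cultures, so the p-values may measure only technical spread.

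Type I and type III interferons signal through receptors with JAK1 and TYK2 to a complex that holds STAT2 and IRF9 and binds the interferon-stimulated response element (ISRE). Interferon gamma signals through JAK1 and JAK2 to the gamma-activated sequence (GAS) and induces IRF1. The products of the target genes sense foreign RNA, degrade or sequester it, stop membrane fusion by viruses, or modify proteins with ISG15. Interferon-stimulated genes are among the transcripts known to be raised in psoriatic epidermis.

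Promoter windows of 250 bases before the transcript start, from RefSeq on GRCh38.p14, were found for 40 of the 49 members (55 windows) and for 27305 genes in all. The ISRE core, which is GAAA and then GAAA again after any 2 bases, searched on both strands, stood in windows of 23 of the 40 members (57.5%) and of 3.71% of all genes. The GAS motif TTCNNNGAA, which reads the same on both strands, stood in 12 members (30%) and 8.09% of all genes. The NF-kB consensus, searched on both strands, stood in 6 members (15%) and 6.28% of all genes. Matches of one motif could overlap those of another, and a match describes the letters only. Below, 6 windows are printed 5′ to 3′ on the strand of the gene, because their genes carry the contrasts described below. IFIT1 (chr10:89392373-89392622, plus strand) and IFIT3 (chr10:89332279-89332528, plus strand) each hold 2 ISRE cores in capitals, and M5 lowered the first gene and raised the second. ISG20 (chr15:88638766-88639015, plus strand) has 1 core, and EPSTI1 (chr13:42992242-42992491, minus strand) has 1 core as well. IFITM3 (chr11:320861-321110, minus strand) has 2 cores. Not in capitals are a GAS match that overlaps the core of EPSTI1 and an NF-kB match at the far end of the IFITM3 window. For IRF1 (chr5:132490774-132491023, minus strand), which has no ISRE core here, the capitals mark a GAS motif and, nearer the start, an NF-kB match.
IFIT1: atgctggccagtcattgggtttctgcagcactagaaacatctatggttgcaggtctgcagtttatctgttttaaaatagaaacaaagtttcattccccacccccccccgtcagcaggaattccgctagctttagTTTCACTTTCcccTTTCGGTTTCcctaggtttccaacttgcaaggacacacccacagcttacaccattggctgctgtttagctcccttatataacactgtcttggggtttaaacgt
IFIT3: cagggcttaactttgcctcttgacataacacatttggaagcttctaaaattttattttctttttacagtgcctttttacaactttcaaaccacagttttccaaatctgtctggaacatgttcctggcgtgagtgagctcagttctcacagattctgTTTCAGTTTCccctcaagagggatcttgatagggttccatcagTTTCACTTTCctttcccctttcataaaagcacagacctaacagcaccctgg
ISG20: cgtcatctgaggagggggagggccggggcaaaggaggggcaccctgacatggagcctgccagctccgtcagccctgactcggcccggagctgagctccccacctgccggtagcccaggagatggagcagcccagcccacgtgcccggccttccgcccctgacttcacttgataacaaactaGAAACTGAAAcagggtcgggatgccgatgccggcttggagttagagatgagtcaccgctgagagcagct
EPSTI1: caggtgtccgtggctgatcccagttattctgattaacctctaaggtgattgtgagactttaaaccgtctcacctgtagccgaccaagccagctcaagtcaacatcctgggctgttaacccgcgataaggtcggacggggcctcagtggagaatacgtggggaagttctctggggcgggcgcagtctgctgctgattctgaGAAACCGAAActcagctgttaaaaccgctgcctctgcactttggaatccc
IFITM3: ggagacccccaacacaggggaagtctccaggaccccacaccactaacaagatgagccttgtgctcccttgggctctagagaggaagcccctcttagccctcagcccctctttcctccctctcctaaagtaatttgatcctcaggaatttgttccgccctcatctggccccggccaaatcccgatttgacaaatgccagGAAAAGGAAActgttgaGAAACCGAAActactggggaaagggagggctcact
IRF1: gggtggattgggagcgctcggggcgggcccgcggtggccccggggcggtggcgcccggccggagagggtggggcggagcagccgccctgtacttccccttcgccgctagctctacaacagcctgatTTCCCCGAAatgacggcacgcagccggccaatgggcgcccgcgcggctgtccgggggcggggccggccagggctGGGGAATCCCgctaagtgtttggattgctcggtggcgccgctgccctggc

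Among members with a window, an ISRE core stood in 12 of the 18 that rose with M5, in 6 of the 8 that fell and in 4 of the 12 not called. With lefamulin it stood in 4 of the 10 that rose, 13 of the 20 that fell and 5 of the 8 not called, and with retapamulin in 2 of 9, 14 of 23 and 6 of 6. In IFIT1 the 2 cores began 116 and 103 bases before the start, and in the printed window of IFIT3 they began 94 and 51 bases before it. A second window of IFIT3, at another start, also held 2 cores.

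Libraries held 35110519 to 37520999 counts over genes and 17009 to 17955 genes with a count, and 3 counts corresponded to 0.0750 to 0.0904 CPM, the unit of counts scaled to library size. Of the 9 keratinocyte markers all were tested, and their summed level was 3033 to 3114 CPM in untreated libraries, 2267 to 2345 with M5, 2981 to 3065 with lefamulin and 3267 to 3332 with retapamulin; KRT14 was low, at 8.52 CPM untreated. That sum covers markers that moved in opposite directions. With M5 4 were higher and 4 lower (44.4% each, all genes 28.3% and 26.9%). With each compound against M5, 5 were higher (55.6%) and 4 lower (44.4%). The shares of all genes were 33.6% and 34.3% with lefamulin and 34.1% and 38% with retapamulin. KRT5, a basal keratin, had means of 1632, 637, 454 and 437 CPM from untreated to retapamulin, and SFN, which encodes stratifin of epithelial cells, 466, 529, 1267 and 1472 CPM. Of 6 leukocyte markers 5 were in the table, summing to 0.500 to 0.716 CPM untreated, 1.56 to 1.98 with M5, 0.313 to 0.537 with lefamulin and 0.233 to 0.531 with retapamulin. PTPRC had at most 1 count in any library. CD14, the one tested, averaged 0.391 ± 0.0461 CPM untreated, 1.58 ± 0.197 with M5, 0.235 ± 0.140 with lefamulin and 0.0689 ± 0.0160 with retapamulin; it rose with M5 by 2.00 and fell by 2.73 and 4.45 with the compounds. The 2 markers of plasmacytoid dendritic cells in the table, a cell type known for making type I interferon, summed to at most 0.114 CPM in any library. The 3 endothelial markers in the table summed to 14.6 to 16.7 CPM untreated, 117 to 122 with M5, 118 to 123 with lefamulin and 99.8 to 115 with retapamulin. Almost all of this came from CDH5, with PECAM1 at no more than 1 count a library. VWF went the other way with M5, falling by 3.06, with means of 0.476, 0.0543, 2.34 and 2.23 CPM from untreated to retapamulin. The part of these markers in the results was not tested. Levels below are CPM on library sizes scaled by TMM, given as mean ± SD over 3 libraries, and fold changes are on the log2 scale with their standard error (SE). Every adjusted p is that of edgeR's quasi-likelihood test with Benjamini-Hochberg adjustment over the 14207 genes, and a gene that rose or fell had an adjusted p under 0.05. In bulk libraries fewer cells with a transcript and less of it per cell cannot be told apart. Each compound was compared with the same M5 libraries that were compared with untreated cells, so these comparisons are not independent of each other.

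M5 moved the members in both directions. It raised OASL, ISG20, IFI44, the 3 IFITM genes, PLSCR1 and GBP2, and it lowered IFIT1, IFIT2 and EPSTI1. Of the 46 members tested 22 rose (47.8%) and 9 fell (19.6%), against 28.3% and 26.9% of all genes. The median of the members was 0.17 and that of all genes -0.02. At least 2-fold changes were called for 8 members upward and 3 downward (all genes 5.07% and 5.53%). The low-count filter set the direction for RSAD2 and IFI27 among these rises and for IFI44L among these falls, as described below. On library totals alone the median of all genes moved to -0.14, and 18 members rose and 16 fell; the share of higher genes among all called genes was 51.3% and became 31.5%.

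With each compound more members fell than rose from their levels with M5. With lefamulin 11 members rose (23.9%, all genes 33.6%) and 26 fell (56.5%, all genes 34.3%), with a median of -0.38 against -0.00 for all genes. With retapamulin 10 rose (21.7%, all genes 34.1%) and 30 fell (65.2%, all genes 38%), with a median of -0.56 against -0.05. Falls of at least 2-fold were called for 11 members with lefamulin (all genes 4.91%) and 15 with retapamulin (all genes 8.66%), and rises of that size for 2 members with each (all genes 9.09% and 9.81%). The low-count filter set the direction of the fall of RSAD2 with lefamulin, as described below. The members that rose included STAT2, IRF7, IRF9, OAS1, OAS3 and ISG20, and those that fell included OASL, IFI44, GBP2, GBP1, IFIT1, EPSTI1 and XAF1. On library totals 10 rose and 29 fell with lefamulin, and 8 rose and 32 fell with retapamulin, where the median of all genes was -0.05 and -0.19. There 4385 of the 14207 genes rose and 5395 fell with lefamulin, and 3942 rose and 6586 fell with retapamulin.

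**Figure D1:**
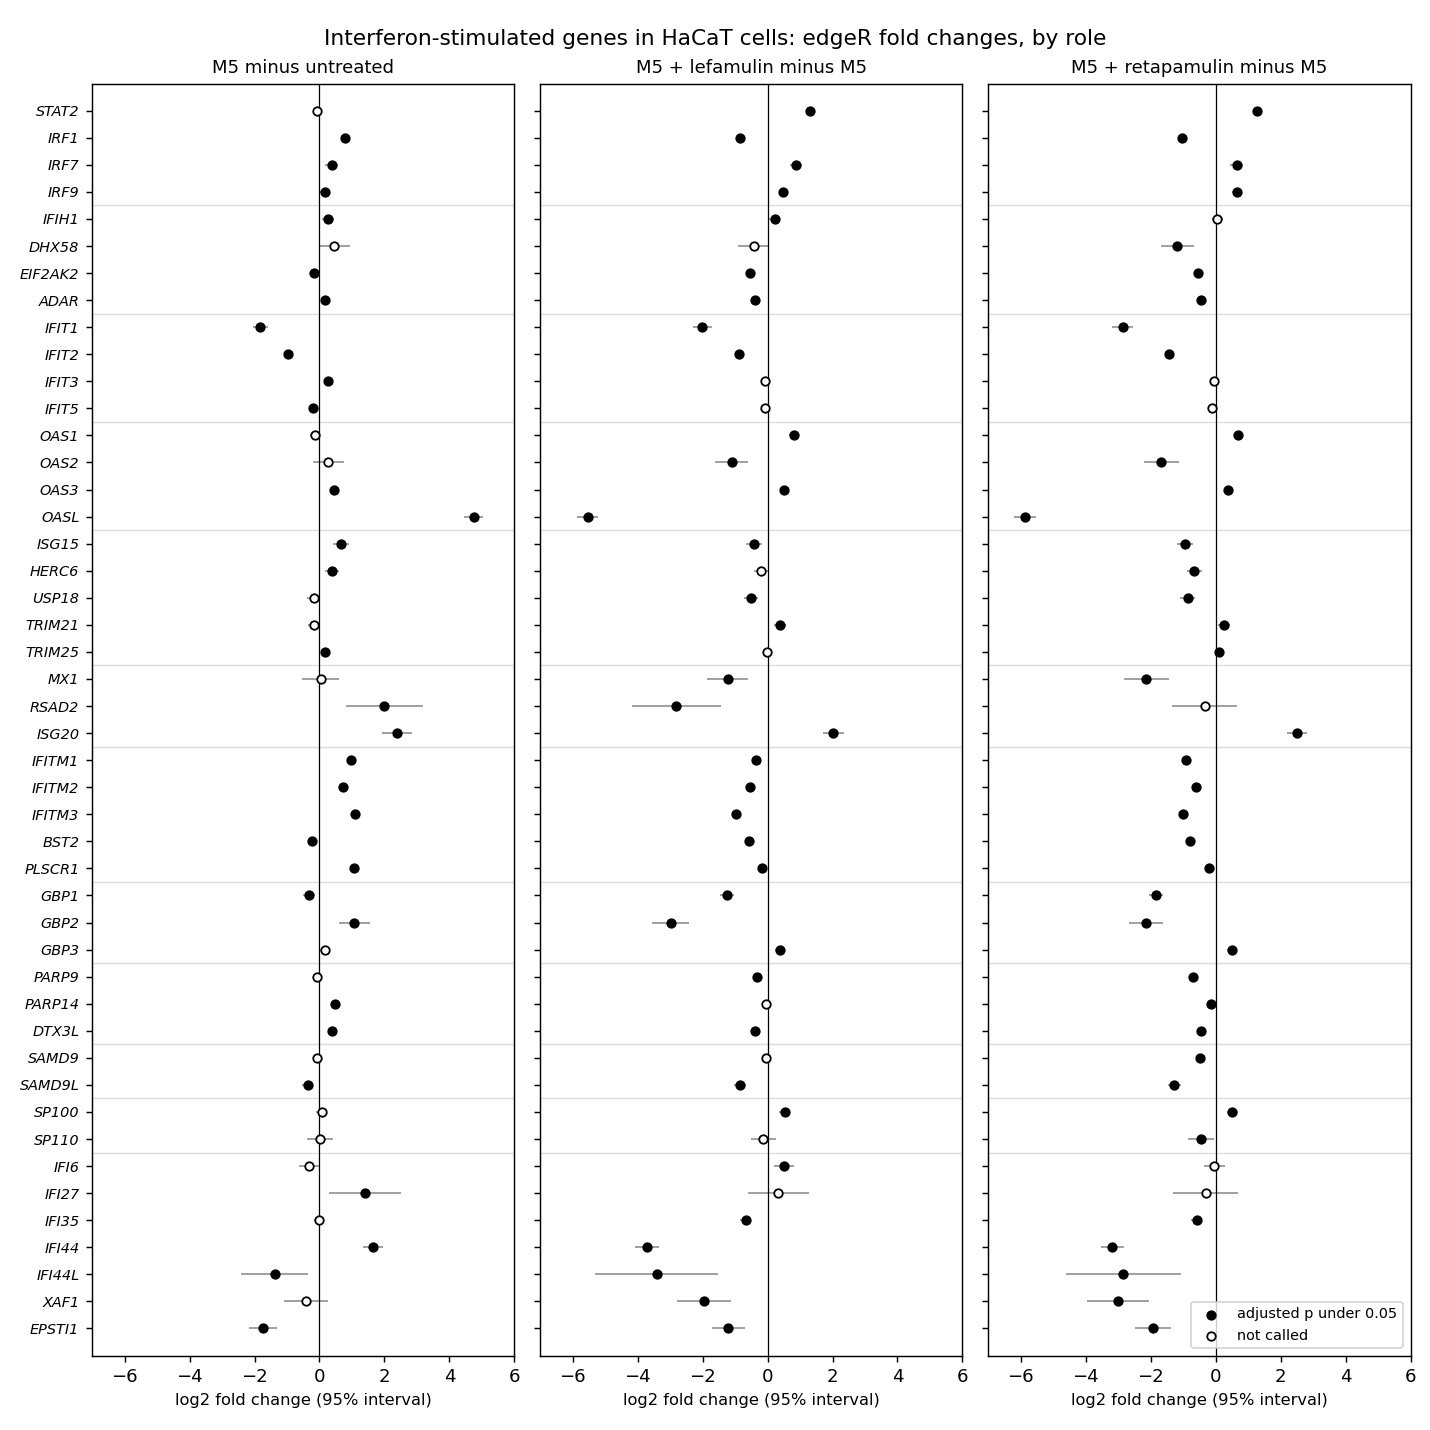
Log2 fold changes with 95% intervals of the 46 members tested, ordered by role, for M5 against untreated (left), M5 with lefamulin against M5 (middle) and M5 with retapamulin against M5 (right). Filled points were called at an adjusted p under 0.05; OASL lies at 4.75, -5.53 and -5.87 in the 3 panels, while ISG20 lies right of 0 in each.

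The 4 transcription factors of the list did not move as one. STAT2, a subunit of the complex that binds the ISRE, stood at 64.3, 67.1 and 68.8 CPM in untreated libraries, 63.9, 64.6 and 61.3 with M5, 159, 155 and 155 with lefamulin and 149, 159 and 155 with retapamulin. The untreated and M5 libraries overlapped, and all 6 libraries with a compound lay above them at more than 2 times their level. The change of STAT2 with M5 was -0.08 (SE 0.04, adjusted p = 0.108) and was not called, although it was on library totals (-0.20, adjusted p = 1.5e-04), on both FPKM scales and with a minimum of 1 CPM, with adjusted p from 1.5e-04 to 0.354 over all alternatives. STAT2 rose by 1.30 (SE 0.04, adjusted p = 3.1e-19) with lefamulin and by 1.29 (SE 0.04, adjusted p = 2.7e-19) with retapamulin. IRF9, the DNA-binding partner in the same complex, averaged 15.2 ± 0.776 CPM untreated, 17.1 ± 0.818 with M5, 24.0 ± 0.855 with lefamulin and 26.7 ± 1.22 with retapamulin. It rose with both compounds, by 0.49 and 0.64. Its rise with M5 (0.17, adjusted p = 0.0391) ended in 9 of 21 alternatives, among them those without untreated replicate 2 (adjusted p = 0.0632) or 3 (0.147) and without M5 replicate 1 (0.136) or 2 (0.0704), with 0.0240 to 0.566 over all of them.

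IRF1, an early target of interferon gamma and of NF-kB, took another course. Its level was 47.3, 49.2 and 45.1 CPM in untreated libraries, 84.9, 77.4 and 84.2 with M5, 45.5, 47.9 and 44.5 with lefamulin and 39.6, 38.4 and 42.1 with retapamulin. The 3 M5 libraries were the highest, the retapamulin libraries the lowest, and the lefamulin libraries overlapped the untreated ones. IRF1 rose by 0.80 (SE 0.05, adjusted p = 4.7e-13) with M5, and it fell by 0.84 with lefamulin (SE 0.05) and by 1.04 with retapamulin (SE 0.05). IRF7, which amplifies the induction of type I interferon, averaged 6.95 ± 0.853 CPM untreated, 9.04 ± 0.631 with M5, 16.7 ± 0.585 with lefamulin and 14.2 ± 0.658 with retapamulin. It rose at each step, by 0.38 with M5 (adjusted p = 0.00178) and then by 0.88 with lefamulin and 0.65 with retapamulin.

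Of 10 genes for interferon receptors and JAK-STAT signalling, 8 rose and 1 fell with M5 (all genes 28.3% and 26.9%), 4 rose and 6 fell with lefamulin (all genes 33.6% and 34.3%), and 3 rose and 5 fell with retapamulin (all genes 34.1% and 38%), with medians of 0.50, -0.25 and -0.12. The shares that rose with a compound, 40% and 30%, were near those of all genes.

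IFNGR1, the ligand-binding chain of the interferon gamma receptor, had the largest rise of that list. Its values were 74.3, 75.3 and 71.5 CPM in untreated libraries, 393, 393 and 403 with M5, 144, 146 and 146 with lefamulin and 129.7, 135 and 128 with retapamulin. No library of one group reached those of another, and both compounds lay between M5 and untreated. IFNGR1 rose by 2.43 (SE 0.03, adjusted p = 6.1e-26) and fell by 1.44 and 1.60. JAK2, the kinase bound to the second chain of that receptor, averaged 7.14 ± 0.740 CPM untreated, 22.1 ± 0.133 with M5, 9.72 ± 0.251 with lefamulin and 8.45 ± 1.23 with retapamulin, a rise of 1.63 followed by falls of 1.19 and 1.39. IL10RB, a chain of the receptor for type III interferons, was the gene that fell with M5, by 0.67, whereas IFNLR1, its partner, rose by 0.22 with M5, 0.49 with lefamulin and 0.46 with retapamulin. JAK1 rose by 0.40 with M5, 0.17 with lefamulin and 0.18 with retapamulin.

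**Figure D2:**
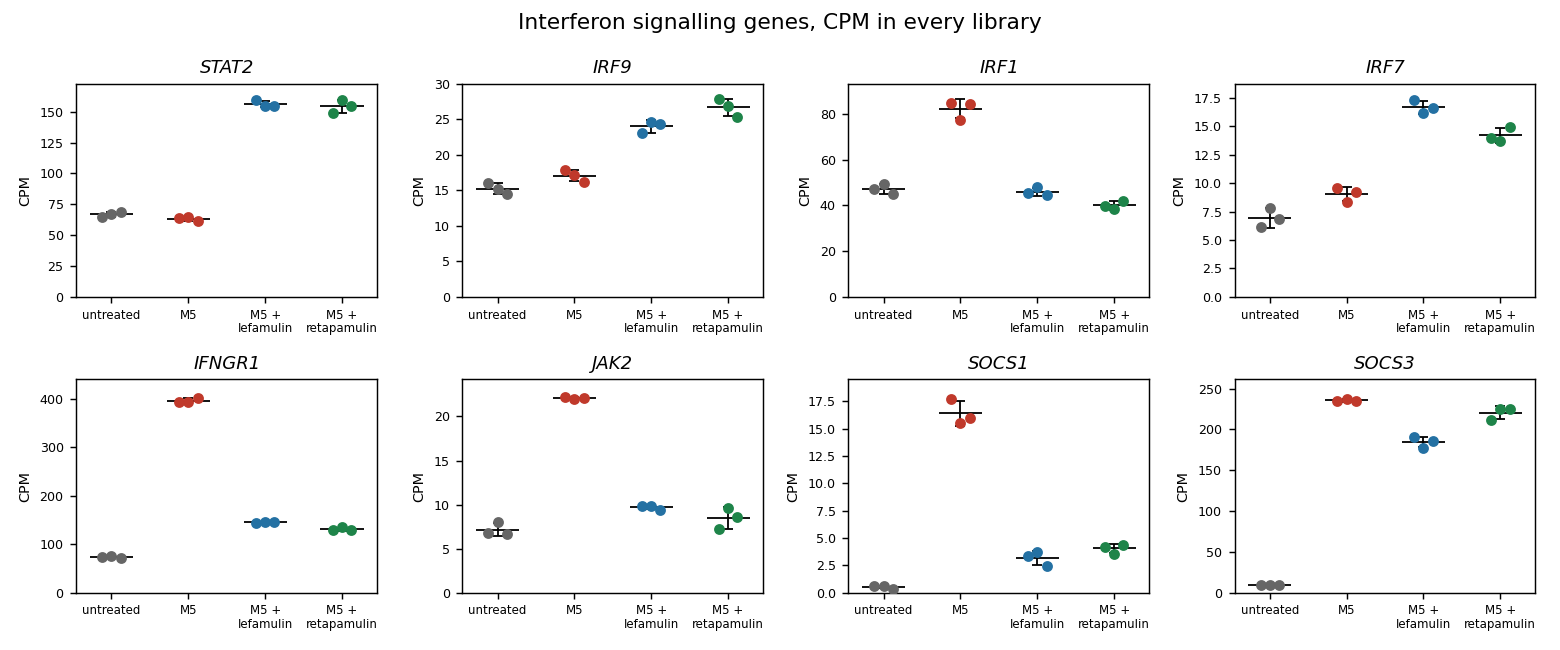
CPM in every library (points), with mean and SD of the 3 libraries (bars), for STAT2, IRF9, IRF1, IRF7, IFNGR1, JAK2, SOCS1 and SOCS3 in the 4 groups. Each panel has its own axis from 0; STAT2, IRF9 and IRF7 are highest in the libraries with a compound, and IRF1, IFNGR1, JAK2, SOCS1 and SOCS3 by mean in those with M5 alone.

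Feedback inhibitors of these kinases were highest with M5 alone. SOCS1, which blocks JAK kinases, averaged 0.520 ± 0.129 CPM untreated, 16.4 ± 1.15 with M5, 3.16 ± 0.660 with lefamulin and 4.05 ± 0.431 with retapamulin, a rise of 4.98 (SE 0.18, adjusted p = 2.5e-17) and falls of 2.38 and 2.02. SOCS3, which acts mainly on receptors that use STAT3, rose by 4.59 (SE 0.05, adjusted p = 5.2e-29) and fell by 0.35 and 0.10. Of the 9 tested genes for other IRFs and negative regulators, 6 rose (66.7%, all genes 28.3%) and 1 fell with M5 (all genes 26.9%), the latter IRF5 by 0.22. With each compound 3 rose (33.3%), near the 33.6% and 34.1% of all genes, and 5 fell (55.6%, all genes 34.3% and 38%). PTPN6, a phosphatase, rose with lefamulin by 0.31 and IRF5 with retapamulin by 0.56. The second largest fall was that of IRF2, by 0.49 and 0.43.

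Interferon transcripts themselves were near the limit of detection. Of 21 interferon genes 6 had a row and 1 was tested. IFNB1 had 1 count over all 12 libraries, and IFNL1, IFNL2 and IFNL3 had at most 2 counts in any library. IFNK, an interferon of keratinocytes, had 4 counts in lefamulin replicate 1 and none elsewhere. IFNE, an interferon of epithelia, averaged 0.162 ± 0.0401 CPM untreated, 0.466 ± 0.245 with M5, 1.21 ± 0.215 with lefamulin and 0.868 ± 0.324 with retapamulin. It rose by 1.51 (SE 0.47, adjusted p = 0.00880) with M5 and further by 1.36 (SE 0.37, adjusted p = 0.00231) with lefamulin and 0.89 (SE 0.38, adjusted p = 0.0415) with retapamulin. The untreated libraries had 8, 6 and 5 counts of IFNE, so it passed the low-count filter only through libraries given M5. The filter thus set the direction of its rise over untreated.

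Among 10 tested genes that sense nucleic acids upstream of interferon, 8 rose and 1 fell with M5 (80% and 10%, all genes 28.3% and 26.9%; median 0.82). The largest rises were those of IKBKE, a kinase of IRF3 and IRF7 with means of 33.2, 91.2, 67.1 and 59.8 CPM from untreated to retapamulin and a rise of 1.46 (SE 0.05, adjusted p = 1.7e-18), and DDX58, which encodes the RNA sensor RIG-I with 11.1, 28.2, 30.9 and 22.7 CPM in the same order and a rise of 1.35 (SE 0.07, adjusted p = 9.7e-15). TLR3, an endosomal receptor of double-stranded RNA, fell with M5 by 0.33 and with the compounds by 0.51 and 0.82. With lefamulin 2 of the 10 rose and 4 fell (all genes 33.6% and 34.3%), and with retapamulin 3 rose and 6 fell (all genes 34.1% and 38%), so the share lower with lefamulin and the share higher with retapamulin were near those of all genes. TICAM1, the adaptor of TLR3, rose by 0.91 and 1.41 and IRF3 by 0.23 and 0.38, while STING1, the adaptor of the DNA sensor cGAS, fell by 1.46 and 1.84.

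The 4 RNA sensors and double-stranded RNA enzymes of the member list changed by -0.16 to 0.46 with M5. DHX58, which encodes the regulator LGP2, read 1.43, 1.63 and 2.02 CPM in untreated libraries, 2.17, 1.95 and 2.90 with M5, 1.80, 1.86 and 1.57 with lefamulin and 0.934, 0.915 and 1.25 with retapamulin. Retapamulin libraries lay below those of every other group, while the untreated libraries overlapped both the M5 and the lefamulin libraries. DHX58 differed by 0.46 (SE 0.23, adjusted p = 0.0890) with M5 and -0.42 (SE 0.23, adjusted p = 0.104) with lefamulin, both not called except for the latter on FPKM (adjusted p from 0.0245 to 0.411 over the alternatives), and fell by 1.17 with retapamulin (SE 0.24, adjusted p = 1.3e-04). EIF2AK2, which encodes the kinase PKR that halts translation, fell in all 3 comparisons, by 0.16 with M5 and by 0.55 and 0.55 with the compounds. ADAR, which edits double-stranded RNA, rose with M5 by 0.17, a call that ended on library totals (0.05, adjusted p = 0.140) and on FPKM, with 1.3e-07 to 0.143 over the alternatives; it fell with the compounds by 0.39 and 0.46. IFIH1, the sensor MDA5, rose by 0.25 with M5 and 0.22 with lefamulin. The first call ended on library totals (adjusted p = 0.187), on FPKM and without untreated replicate 3 (0.0593) or M5 replicate 1 (0.0586), with 0.00913 to 0.187 in all. The second ended on library totals (0.0869), on FPKM, without the low-count filter and without M5 replicate 3 (0.124) or lefamulin replicate 2 (0.168), with 0.0159 to 0.168 in all.

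The IFIT family, whose products bind the 5′ ends of foreign RNA or scaffold that complex, split within one gene cluster. IFIT1 stood at 21.8, 21.8 and 23.6 CPM in untreated libraries, 5.83, 6.71 and 6.52 with M5, 1.22, 1.64 and 1.88 with lefamulin and 0.964, 0.826 and 0.816 with retapamulin. The 4 groups formed 4 separate levels, highest in untreated libraries and lowest with retapamulin. IFIT1 fell by 1.82 with M5 (SE 0.11), a 3.53-fold fall, and again by 2.01 with lefamulin (SE 0.14) and 2.87 with retapamulin (SE 0.15). IFIT2 stood at 58.1, 55.3 and 55.3 CPM in untreated libraries, 28.3, 29.8 and 28.7 with M5, 14.7, 16.2 and 16.1 with lefamulin and 10.5, 10.1 and 11.5 with retapamulin. Its 4 groups kept the same order without overlap. IFIT2 fell by 0.96 with M5 (SE 0.05), and by 0.89 and 1.43 with the compounds.

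IFIT3, a partner of IFIT1, lies next to IFIT2 and averaged 31.9 ± 0.304 CPM untreated, 38.0 ± 1.21 with M5, 36.1 ± 1.07 with lefamulin and 36.5 ± 1.06 with retapamulin. It rose by 0.25 (SE 0.05, adjusted p = 6.9e-05) with M5. The differences with the compounds, -0.07 (SE 0.05, adjusted p = 0.176) and -0.06 (SE 0.05, adjusted p = 0.276), were not called, but they were on library totals (-0.12, adjusted p = 0.0265 for lefamulin; -0.19, adjusted p = 6.8e-04 for retapamulin) and on FPKM, with 0.0102 to 0.427 and 3.1e-04 to 0.743 over the alternatives. IFIT5 fell by 0.20 with M5. With lefamulin it differed by -0.07 (SE 0.05, adjusted p = 0.234) and with retapamulin by -0.10 (SE 0.05, adjusted p = 0.0792), not called; both were called on library totals and on FPKM, and the latter without retapamulin replicate 2 (0.0291; 0.0368 to 0.416 and 1.3e-04 to 0.474 over the alternatives). The span of LIPA, a lysosomal lipase gene, covers IFIT1, IFIT2 and IFIT3 and overlaps IFIT5 in RefSeq, and the sources used here do not say whether the counting used strand, so the counts of these genes are uncertain. LIPA itself averaged 407 ± 7.64 CPM untreated, 211 ± 5.27 with M5, 356 ± 4.79 with lefamulin and 341 ± 5.69 with retapamulin. It fell with M5 by 0.94, close to the change of IFIT2, and rose with the compounds by 0.75 and 0.69, against the falls of IFIT1 and IFIT2; its part in their values was not tested.

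The OAS genes encode synthetases of oligoadenylates that signal the presence of double-stranded RNA, and an inactive relative, OASL, which assists RIG-I. OASL had the largest rise of any member tested. It stood at 1.23, 1.48 and 2.32 CPM in untreated libraries, 44.8, 46.3 and 44.7 with M5, 1.22, 0.734 and 0.969 with lefamulin and 0.542, 0.767 and 0.991 with retapamulin. All 3 M5 libraries lay far above the other 9, and the lefamulin and retapamulin libraries lay below every untreated library. The rise with M5 was 26.9-fold, or 4.75 (SE 0.14, adjusted p = 3.6e-19). It fell by 5.53 with lefamulin (SE 0.16), and it fell by 5.87 with retapamulin (SE 0.17).

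OAS1, OAS2 and OAS3 lie side by side in the genome. None of them had both the rise with M5 and the falls with the compounds that were called for OASL. OAS3 averaged 113 ± 4.02 CPM untreated, 155 ± 0.673 with M5, 222 ± 3.34 with lefamulin and 203 ± 6.40 with retapamulin and rose by 0.46 with M5, 0.52 with lefamulin and 0.39 with retapamulin. OAS1 averaged 14.1 ± 0.416 CPM untreated, 12.7 ± 0.924 with M5, 22.4 ± 0.778 with lefamulin and 20.7 ± 0.217 with retapamulin; it differed by -0.14 (SE 0.07, adjusted p = 0.0937) with M5, not called, and rose by 0.81 and 0.70 with the compounds. Its change with M5 was called as a fall on library totals (-0.26, adjusted p = 0.00349) and on FPKM, with 0.00349 to 0.410 over the alternatives. OAS2 read 1.92, 2.05 and 2.70 CPM in untreated libraries, 2.99, 2.06 and 2.98 with M5, 1.38, 0.904 and 1.45 with lefamulin and 1.02, 0.708 and 0.787 with retapamulin. Libraries of untreated and M5 cells overlapped, and those with either compound lay below both. OAS2 differed by 0.27 (SE 0.23, adjusted p = 0.341) with M5, not called, and fell by 1.10 (adjusted p = 3.5e-04) and 1.67 (adjusted p = 3.3e-06).

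ISG15 is a ubiquitin-like modifier that HERC ligases attach and USP18 removes. ISG15 was found at 6.13, 4.75 and 5.35 CPM in untreated libraries, 8.95, 8.22 and 8.47 with M5, 6.39, 5.79 and 7.18 with lefamulin and 4.58, 4.46 and 4.34 with retapamulin. M5 libraries were the highest, lefamulin libraries overlapped the untreated ones, and retapamulin libraries lay below all others. ISG15 rose by 0.66 (SE 0.12, adjusted p = 5.2e-05) with M5 and fell by 0.41 (adjusted p = 0.00429) and 0.94 (adjusted p = 2.8e-07). HERC5, the main human ISG15 ligase, had 1, 5 and 4 counts in the M5 libraries and none in the other 9. Leaving out the counting error of the M5 counts, its level with M5 was 3.53-fold that of 3 counts over the untreated group. It was 3.20-fold and 3.04-fold that of 3 counts over the lefamulin and retapamulin groups. HERC6, its neighbour, rose by 0.37 with M5 and fell by 0.66 with retapamulin; with lefamulin it differed by -0.21 (SE 0.11, adjusted p = 0.0867), not called, though called on library totals (-0.25, adjusted p = 0.0356) and on FPKM, with 0.0144 to 0.228 over the alternatives.

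USP18, which also dampens the type I receptor, averaged 10.6 ± 0.389 CPM untreated, 9.38 ± 0.0701 with M5, 6.63 ± 0.815 with lefamulin and 5.16 ± 0.505 with retapamulin. It fell with the compounds by 0.50 and 0.86, and differed by -0.18 (SE 0.10, adjusted p = 0.138) with M5, not called, but called on library totals (-0.30, adjusted p = 0.0136) and on FPKM (0.00619 to 0.298 over the alternatives). TRIM21, an intracellular antibody receptor, differed by -0.18 (SE 0.09, adjusted p = 0.0943) with M5, not called, but called without untreated replicate 1 (-0.25, adjusted p = 0.0318), on library totals and on FPKM (0.00321 to 0.394 over the alternatives). It rose by 0.39 with lefamulin and 0.27 with retapamulin; the latter call ended on library totals (0.13, adjusted p = 0.175) and on FPKM, with 0.00401 to 0.175 in all. TRIM25, the ligase that activates RIG-I, changed by no more than 0.16 in size against M5 or untreated in these 3 comparisons. Its rises with M5 (0.16) and with retapamulin (0.10) ended on library totals (adjusted p = 0.259 and 0.418) and on FPKM, where the second turned to -0.03, and the second also ended without M5 replicate 2 (0.0752); the alternatives spanned 3.9e-06 to 0.259 and 2.2e-04 to 0.418.

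MX1, a GTPase that traps viral nucleocapsids, was low. It read 1.64, 1.37 and 0.950 CPM in untreated libraries, 1.44, 1.18 and 1.42 with M5, 0.415, 0.621 and 0.684 with lefamulin and 0.241, 0.295 and 0.379 with retapamulin. Untreated and M5 libraries overlapped, and every library with a compound lay below them. MX1 differed by 0.03 (SE 0.28, adjusted p = 0.933) with M5, not called, and fell by 1.23 (adjusted p = 0.00114) and 2.13 (adjusted p = 5.2e-06). MX2, its neighbour, had 27, 36, 16 and 16 counts over the untreated, M5, lefamulin and retapamulin groups and was not tested. RSAD2, which encodes the antiviral enzyme viperin, had 10, 39, 5 and 28 counts over the same groups. It rose by 2.00 (SE 0.58, adjusted p = 0.00504) with M5, a call that ended without M5 replicate 3 (1.49, adjusted p = 0.0626; 0.00243 to 0.0626 over its alternatives), and fell by 2.82 with lefamulin (adjusted p = 6.0e-04), while with retapamulin it differed by -0.34 (SE 0.49, adjusted p = 0.543) and was not called. With 11, 21 and 12 counts, only M5 replicates 2 and 3 and retapamulin replicate 1 reached the cutoff of the low-count filter. The filter thus set the direction of the rise of RSAD2 with M5 and of its fall with lefamulin.

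ISG20, an exonuclease of single-stranded RNA, was the member with the largest rise with each compound. It stood at 0.230, 0.415 and 0.450 CPM in untreated libraries, 2.08, 1.68 and 2.01 with M5, 8.29, 7.65 and 7.55 with lefamulin and 12.5, 10.1 and 10.2 with retapamulin. The 4 groups did not overlap and went up from untreated to M5, lefamulin and retapamulin. ISG20 rose by 2.39 (SE 0.23, adjusted p = 2.5e-09) with M5, by 2.02 (SE 0.16, adjusted p = 2.8e-11) with lefamulin and by 2.50 (SE 0.15, adjusted p = 3.0e-13) with retapamulin.

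Membrane restriction factors keep enveloped viruses from fusing or leaving. Of the 5, all but BST2 rose with M5 (80%, all genes 28.3%). All 5 fell with lefamulin (all genes 34.3%) and with retapamulin (all genes 38%). IFITM3, which blocks fusion in endosomes, was the most abundant member per length in every group, with FPKM of 346, 680.5, 337 and 306 as group means from untreated to retapamulin. Its scaled counts were 180.1, 203 and 195 CPM in untreated libraries, 407, 416 and 411 with M5, 211, 204 and 216 with lefamulin and 197, 213 and 201 with retapamulin. M5 libraries lay far above the rest, the lefamulin libraries lay just above the untreated ones, and the retapamulin libraries overlapped both. IFITM3 rose by 1.09 (SE 0.04, adjusted p = 1.5e-17) and fell by 0.97 (SE 0.04) and 1.02 (SE 0.04). IFITM1 and IFITM2 rose by 0.96 and 0.71 with M5, and fell by 0.36 and 0.54 with lefamulin and by 0.90 and 0.60 with retapamulin. The 3 IFITM genes are neighbours and close paralogs, so counts that could be shared between them are uncertain.

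PLSCR1, a membrane protein that limits viral fusion, read 61.5, 65.9 and 62.8 CPM in untreated libraries, 133, 135 and 130.4 with M5, 115, 123 and 115 with lefamulin and 114, 116 and 116 with retapamulin. M5 libraries lay above the rest, and libraries with a compound stayed well above the untreated ones. PLSCR1 rose by 1.07 (SE 0.04, adjusted p = 1.8e-17) with M5 and fell by 0.18 with lefamulin and 0.20 with retapamulin. BST2, tetherin, which holds budding virions on the cell, averaged 47.2 ± 3.28 CPM untreated, 40.5 ± 2.73 with M5, 27.1 ± 0.623 with lefamulin and 23.5 ± 0.993 with retapamulin and fell in all 3 comparisons, by 0.22, 0.58 and 0.78.

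Guanylate-binding proteins are GTPases that attack the membranes around intracellular microbes and are classical targets of interferon gamma. GBP2 was at 2.63, 3.97 and 2.50 CPM in untreated libraries, 6.47, 5.74 and 6.94 with M5, 1.27, 0.621 and 0.513 with lefamulin and 1.24, 2.01 and 1.08 with retapamulin. M5 libraries were the highest, and the 6 libraries with a compound lay below the untreated ones. GBP2 rose by 1.07 (SE 0.23, adjusted p = 3.9e-04) and fell by 2.98 (SE 0.27) and 2.15 (SE 0.26). GBP1 was at 19.1, 18.5 and 19.8 CPM in untreated libraries, 15.8, 15.9 and 14.3 with M5, 6.72, 6.10 and 6.61 with lefamulin and 3.62, 4.10 and 5.19 with retapamulin. Here the untreated libraries were the highest and the groups did not overlap. GBP1 fell by 0.32 with M5 (adjusted p = 0.00508) and by 1.24 and 1.83 with the compounds. GBP3, which lies in the same row of genes, differed by 0.16 (SE 0.07, adjusted p = 0.0758) with M5, not called, and rose by 0.38 and 0.50.

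Of 7 other targets of interferon gamma that were tested, 6 rose with M5 (85.7%, all genes 28.3%) and none fell (all genes 26.9%), with a median of 3.74 (all genes -0.02). CXCL9, IDO1 and GBP5 had at most 2 counts in any untreated library, so they passed the low-count filter only through libraries given M5. The filter thus set the direction of these rises, which enter the share and the median. For GBP5, which passed through the M5 group alone, it also set the falls given below. CXCL10, CXCL11 and SERPING1 were too low to test, with 4, 11 and 1 counts over the untreated group and 18, 13 and 7 with M5. UBD, a ubiquitin-like protein, rose by 3.74 and GBP4 by 1.33. CXCL9, a chemokine for T cells, had 1 count over the untreated libraries and 530 with M5, a ratio of 561-fold (95% counting interval 100.3 to 22217). IDO1, which degrades tryptophan, had 2 and 130 counts, a ratio of 68.9-fold (95% counting interval 18.7 to 575). With lefamulin 1 of the 7 rose and 4 fell (all genes 33.6% and 34.3%), and with retapamulin 1 rose and 6 fell (all genes 34.1% and 38%). WARS1, a tryptophanyl-tRNA synthetase, was the one that rose, by 0.47 and 0.61, and CXCL9 fell by 3.89 and 4.09. GBP4 fell by 3.21 and 4.24, and GBP5, with 47 counts over the M5 group and 4 over each compound group, fell by 3.38 and 3.31.

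PARP9 and DTX3L form a ubiquitin ligase, and PARP14 is an ADP-ribosyltransferase. PARP9 read 34.5, 33.9 and 35.6 CPM in untreated libraries, 33.8, 33.5 and 32.1 with M5, 27.2, 26.8 and 26.2 with lefamulin and 20.1, 20.6 and 20.2 with retapamulin. M5 libraries lay just below the untreated ones, and the libraries with lefamulin and then retapamulin lay lower. PARP9 differed by -0.07 (SE 0.05, adjusted p = 0.255) with M5, not called, but called on library totals (-0.19, adjusted p = 0.00218) and on FPKM (0.00218 to 0.574 over the alternatives), and fell by 0.31 and 0.70. DTX3L, which overlaps PARP9 in the annotation so that their counts are uncertain without strand, rose by 0.39 with M5 and fell by 0.37 and 0.44. PARP14 rose by 0.47 with M5, fell by 0.14 with retapamulin, and differed by -0.05 (SE 0.04, adjusted p = 0.360) with lefamulin, not called.

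SAMD9 and SAMD9L, neighbours that restrict poxviruses and cell growth, differed from each other. SAMD9L read 23.8, 20.8 and 23.7 CPM in untreated libraries, 16.2, 17.9 and 18.8 with M5, 10.01, 9.63 and 10.03 with lefamulin and 8.14, 6.43 and 7.37 with retapamulin. Untreated libraries were the highest, and each further group lay lower without overlap. SAMD9L fell by 0.37 with M5 (adjusted p = 5.6e-04), 0.84 with lefamulin and 1.27 with retapamulin. SAMD9 averaged 261 ± 24.2 CPM untreated, 247 ± 7.86 with M5, 241 ± 6.23 with lefamulin and 176 ± 1.48 with retapamulin and fell with retapamulin by 0.49. It differed by -0.03 (SE 0.05, adjusted p = 0.523) with lefamulin and by -0.08 (SE 0.05, adjusted p = 0.147) with M5, not called; the latter was called without untreated replicate 2 (-0.15, adjusted p = 3.3e-04), on library totals and on FPKM (3.3e-04 to 0.612 over the alternatives).

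SP100, a core protein of nuclear bodies, read 12.5, 12.9 and 11.3 CPM in untreated libraries, 12.1, 12.3 and 14.3 with M5, 19.2, 17.6 and 19.0 with lefamulin and 17.5, 18.6 and 18.9 with retapamulin. Untreated and M5 libraries overlapped, and all libraries with a compound lay above them. SP100 differed by 0.08 (SE 0.08, adjusted p = 0.452) with M5, not called, and rose by 0.53 and 0.51. SP110, a relative, averaged 3.26 ± 0.147 CPM untreated, 3.30 ± 0.523 with M5, 3.01 ± 0.451 with lefamulin and 2.40 ± 0.566 with retapamulin and fell with retapamulin by 0.46 (adjusted p = 0.0398). That call ended in 6 of 21 alternatives: RLE, DESeq2, the fit of 2 groups, and without M5 replicate 2 (0.0822) or 3 (0.147) or retapamulin replicate 1 (-0.27, adjusted p = 0.222), with 0.00836 to 0.222 over all.

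The remaining members have mixed functions. IFI44, a cytoplasmic antiviral protein, was found at 4.29, 3.09 and 3.57 CPM in untreated libraries, 11.2, 11.7 and 11.4 with M5, 0.747, 1.13 and 0.741 with lefamulin and 1.39, 1.12 and 1.25 with retapamulin. M5 libraries lay above the untreated ones, and all 6 libraries with a compound lay below both. IFI44 rose by 1.65 (SE 0.15, adjusted p = 1.1e-09) with M5 and fell by 3.71 (SE 0.18) and 3.19 (SE 0.17). Its neighbour IFI44L had 72, 26, 2 and 3 counts over the 4 groups. It fell by 1.38 with M5 (adjusted p = 0.0226), a call that ended with DESeq2 (0.0925) and without untreated replicate 2 (-0.82, adjusted p = 0.239) or M5 replicate 2 (-1.11, adjusted p = 0.0990), with 0.00840 to 0.239 in all. Outside the untreated group only M5 replicate 3 reached the cutoff of the low-count filter, so the filter set the direction of this fall. M5 exceeded lefamulin 12.5-fold (95% counting interval 3.13 to 109) and retapamulin 7.91-fold (95% counting interval 2.42 to 40.8); edgeR called both falls (adjusted p = 0.00206 and 0.00482), and limma on FPKM called neither, with 3.5e-04 to 0.243 and 0.00165 to 0.254 over the alternatives.

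EPSTI1, which was named for its induction in epithelium by stroma, read 4.86, 4.72 and 4.72 CPM in untreated libraries, 1.50, 1.13 and 1.66 with M5, 0.636, 0.706 and 0.513 with lefamulin and 0.452, 0.354 and 0.320 with retapamulin. The untreated libraries lay above all others, and the groups formed 4 levels without overlap. EPSTI1 fell by 1.74 with M5 (SE 0.21), by 1.20 with lefamulin and by 1.92 with retapamulin. XAF1, which promotes apoptosis, read 1.48, 1.63 and 1.40 CPM in untreated libraries, 0.855, 0.852 and 1.69 with M5, 0.249, 0.254 and 0.370 with lefamulin and 0.0301, 0.148 and 0.233 with retapamulin. Untreated and M5 libraries overlapped, and those with a compound lay below them. XAF1 differed by -0.41 (SE 0.33, adjusted p = 0.306) with M5, not called, and fell by 1.95 (adjusted p = 1.4e-04) and 3.01 (adjusted p = 2.4e-06).

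IFI35 averaged 15.1 ± 0.563 CPM untreated, 15.0 ± 0.295 with M5, 9.41 ± 0.825 with lefamulin and 9.99 ± 0.436 with retapamulin and fell with the compounds by 0.67 and 0.58, with -0.01 (SE 0.08, adjusted p = 0.906) for M5, not called. IFI6, a mitochondrial and endoplasmic reticulum protein, averaged 4.29 ± 0.764 CPM untreated, 3.45 ± 0.221 with M5, 4.89 ± 0.267 with lefamulin and 3.35 ± 0.360 with retapamulin and rose with lefamulin by 0.50 (adjusted p = 0.00574). Its difference with M5, -0.31 (SE 0.15, adjusted p = 0.0882), was not called, but was without untreated replicate 3 (-0.42, adjusted p = 0.0401), on library totals and on FPKM (0.00764 to 0.441 over the alternatives). IFI27 had 15, 38, 46 and 28 counts over the 4 groups and rose with M5 by 1.40 (SE 0.54, adjusted p = 0.0303). That call ended with DESeq2 and without untreated replicate 2 (0.0877) or 3 (0.0920) or M5 replicate 2 (0.0628) or 3 (0.106), with 0.0184 to 0.106 in all. The untreated libraries had 7, 4 and 4 counts of IFI27, so it passed the low-count filter only through libraries given M5. The filter thus set the direction of this rise.

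**Figure D3:**
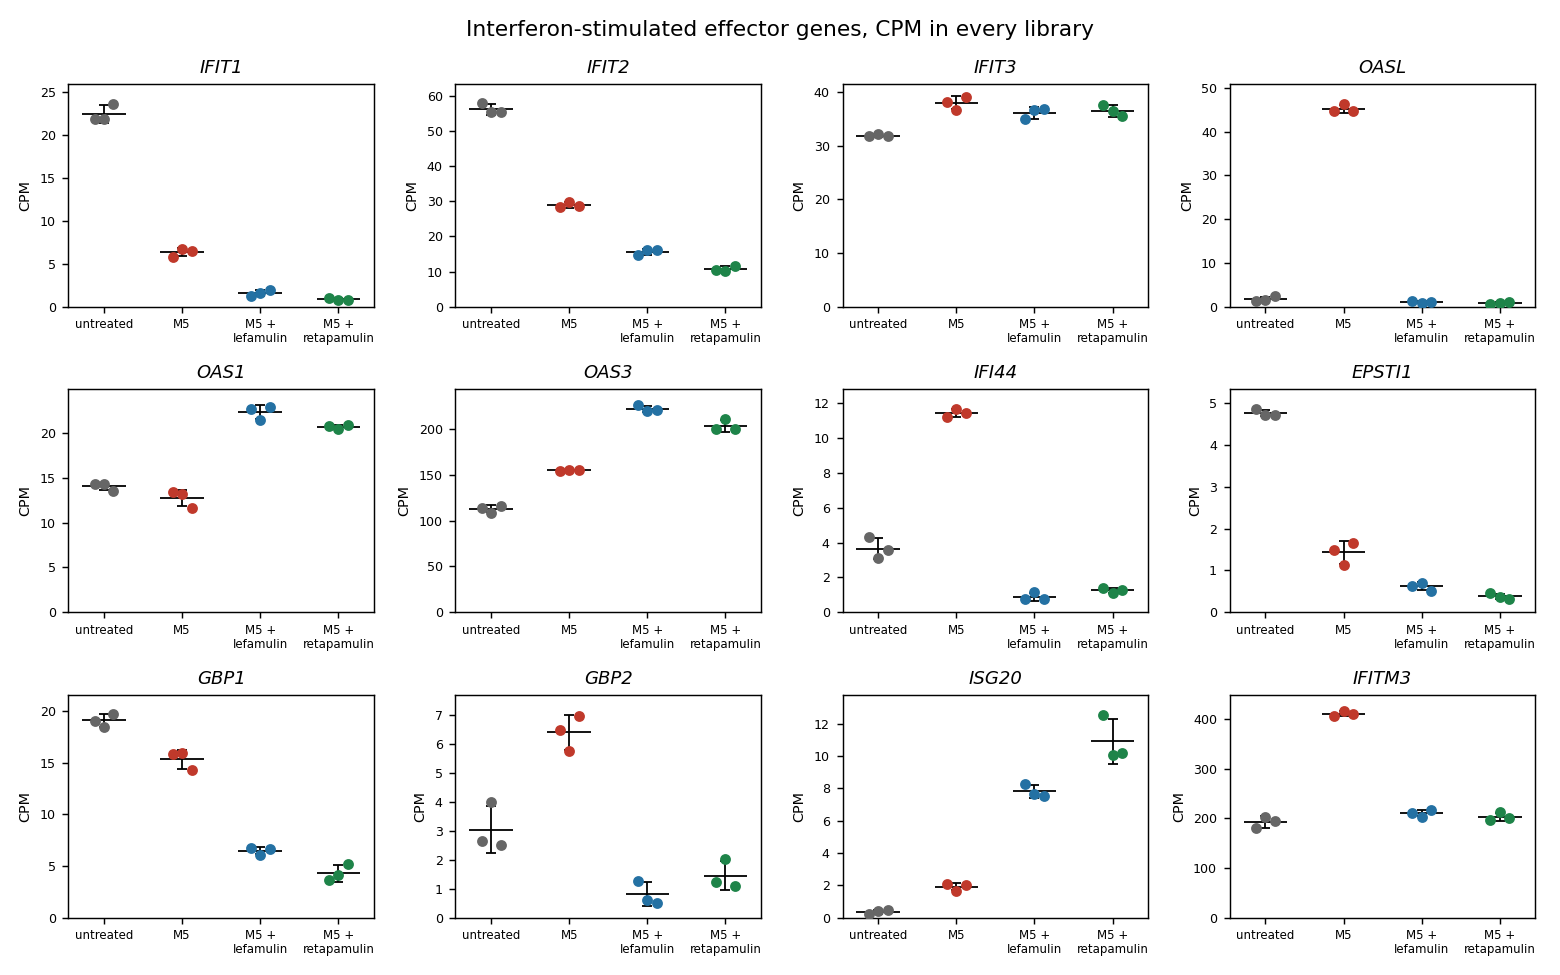
CPM in every library (points), with mean and SD of the 3 libraries (bars), for 12 effector genes in the 4 groups, each panel with its own axis from 0. IFIT1, IFIT2, EPSTI1 and GBP1 are highest in untreated libraries, OASL, IFI44, GBP2 and IFITM3 with M5, and OAS1, OAS3 and ISG20 with a compound.

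A further 28 interferon-stimulated genes outside the list were counted the same way, of which 26 were tested. With M5 17 rose and 2 fell (65.4% and 7.69%, all genes 28.3% and 26.9%), with a median of 0.37 (all genes -0.02). With lefamulin 5 rose and 15 fell (19.2% and 57.7%, all genes 33.6% and 34.3%), with a median of -0.38 (all genes -0.00). With retapamulin 4 rose and 19 fell (15.4% and 73.1%, all genes 34.1% and 38%), with a median of -0.67 (all genes -0.05). TNFSF10, the death ligand TRAIL, stood at 14.0, 13.9 and 16.4 CPM in untreated libraries, 80.0, 74.0 and 80.8 with M5, 6.72, 6.89 and 7.69 with lefamulin and 3.19, 3.48 and 2.68 with retapamulin. M5 libraries were the highest, and libraries with a compound lay below the untreated ones. TNFSF10 rose by 2.41 (SE 0.07, adjusted p = 1.2e-19) and fell by 3.46 and 4.65. LAMP3, a lysosomal membrane protein, rose with M5 by 2.12, and TRIM5, a capsid-binding factor, fell by 0.32. TRIM22 fell by 3.02 with lefamulin and 3.68 with retapamulin. SLFN11, which blocks translation of viral messages, rose by 1.11 and 0.91. SLFN5 rose with lefamulin by 0.62 and fell with retapamulin by 0.26, and TDRD7 rose with retapamulin by 0.64.

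Lefamulin and retapamulin, the 1 pair of compounds, were compared directly with M5 present in both. Since neither doses nor times are given, it is not known whether they were matched, and the differences below are between these 2 sets of libraries. Of the 46 members 16 were higher with lefamulin (34.8%, all genes 18.8%) and 4 were lower (8.7%, all genes 21.2%), with a median of 0.14 against 0.01 for all genes. On library totals 27 were higher and 2 lower, where the median of all genes was 0.10, and the share of higher genes among all called genes was 47% but 72.8% on library totals and 36.8% with RLE.

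IFIT1 was higher with lefamulin by 0.86 (SE 0.19, 95% interval 0.47 to 1.24, adjusted p = 7.4e-04) and IFIT2 by 0.54 (SE 0.07, adjusted p = 6.5e-07). GBP1 was higher by 0.59 (SE 0.11, adjusted p = 2.4e-04), IFITM1 by 0.55 (SE 0.05, adjusted p = 6.8e-09), and ISG15 by 0.53 (SE 0.13, adjusted p = 0.00163). IFI6 was higher by 0.54, SAMD9 by 0.45, HERC6 by 0.45, SAMD9L by 0.44 and PARP9 by 0.40. IRF1 and OAS3 were higher by 0.20 and 0.13. These 12 differences were called in every alternative run.

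The other 4 genes called higher and the 4 called lower each lost the call somewhere. DHX58 was higher by 0.75 (SE 0.25, adjusted p = 0.0181), but its adjusted p was 0.0512 or 0.0580 without lefamulin replicate 1 or 2, and 0.0598 or 0.0698 without retapamulin replicate 1 or 2 (0.00384 to 0.0698 over its alternatives). USP18 was higher by 0.36, a call that ended without lefamulin replicate 3 (0.0926) or retapamulin replicate 1 (0.0813; 0.00184 to 0.0926 in all). BST2 was higher by 0.20, a call that ended without retapamulin replicate 3 (0.0569; 7.5e-04 to 0.0569 in all). IRF7 was higher by 0.23 (adjusted p = 0.0404), and 9 of 21 alternatives ended that call, with 0.00503 to 0.131 in all: RLE, DESeq2, no low-count filter, the replicate block, and without lefamulin replicate 1 (0.123), 2 (0.0573) or 3 (0.0810) or retapamulin replicate 1 (0.0943) or 2 (0.131).

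ISG20 was lower with lefamulin, with a difference of -0.48 (SE 0.14, adjusted p = 0.00673), a call that ended without retapamulin replicate 1 (-0.37, adjusted p = 0.0605) and on log2(FPKM + 0.1) (0.0534; 7.4e-04 to 0.0605 in all). GBP2 was lower as well (-0.84, SE 0.31, adjusted p = 0.0319), with overlapping libraries, and library totals (0.0541), the fit of 2 groups (0.0512) and FPKM ended its call; without lefamulin replicate 2 or 3 or retapamulin replicate 2 its adjusted p was 0.128, 0.157 and 0.235, with differences of -0.68, -0.60 and -0.52 (0.00278 to 0.235 in all). RSAD2 was lower (-2.48, SE 0.69, adjusted p = 0.00634) on 5 counts against 28, and log2(FPKM + 1) ended the call (0.00530 to 0.0861 in all). No lefamulin library reached the cutoff of the low-count filter for RSAD2, so the filter set this direction too. TRIM25 was lower (-0.13), and library totals (-0.04, adjusted p = 0.389) and FPKM ended the call (2.3e-05 to 0.389 in all).

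For the 26 members not called between the compounds the intervals of the difference vary in width. STAT2 differed by 0.02 (95% interval -0.06 to 0.09), IFIT3 by -0.01 (-0.11 to 0.08), EIF2AK2 by -0.01 (-0.09 to 0.07), PLSCR1 by 0.02 (-0.05 to 0.10) and IFITM3 by 0.05 (-0.04 to 0.13). Intervals of the low genes were wider: OASL differed by 0.34 (-0.21 to 0.89), MX1 by 0.90 (0.13 to 1.67), XAF1 by 1.06 (-0.07 to 2.18), EPSTI1 by 0.72 (0.10 to 1.34) and IFI44 by -0.52 (-0.97 to -0.07). Some of these differences were called under an alternative. MX1 was called without lefamulin replicate 1 (1.09, adjusted p = 0.0402) and on library totals, IFI44 without untreated replicate 2 (0.0492) or lefamulin replicate 2 (-0.75, adjusted p = 0.0163) and with RLE and DESeq2, and EPSTI1 on library totals (0.0322), with 0.0352 to 0.208, 0.0163 to 0.198 and 0.0322 to 0.234 over their alternatives. OAS2 (0.57) was called without lefamulin replicate 2 (0.0477), IRF9 (-0.15) without retapamulin replicate 3 (0.0420) and with RLE and DESeq2, and ADAR (0.07) without untreated replicate 2 (0.0339), on library totals and in 4 further settings, with 0.0477 to 0.287, 0.0195 to 0.445 and 2.4e-04 to 0.474 over the alternatives. STAT2, PLSCR1 and IFITM3 were called higher with lefamulin on library totals, by 0.11, 0.11 and 0.14. A difference that is not called does not show that the compounds act alike on a gene.

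**Figure D4:**
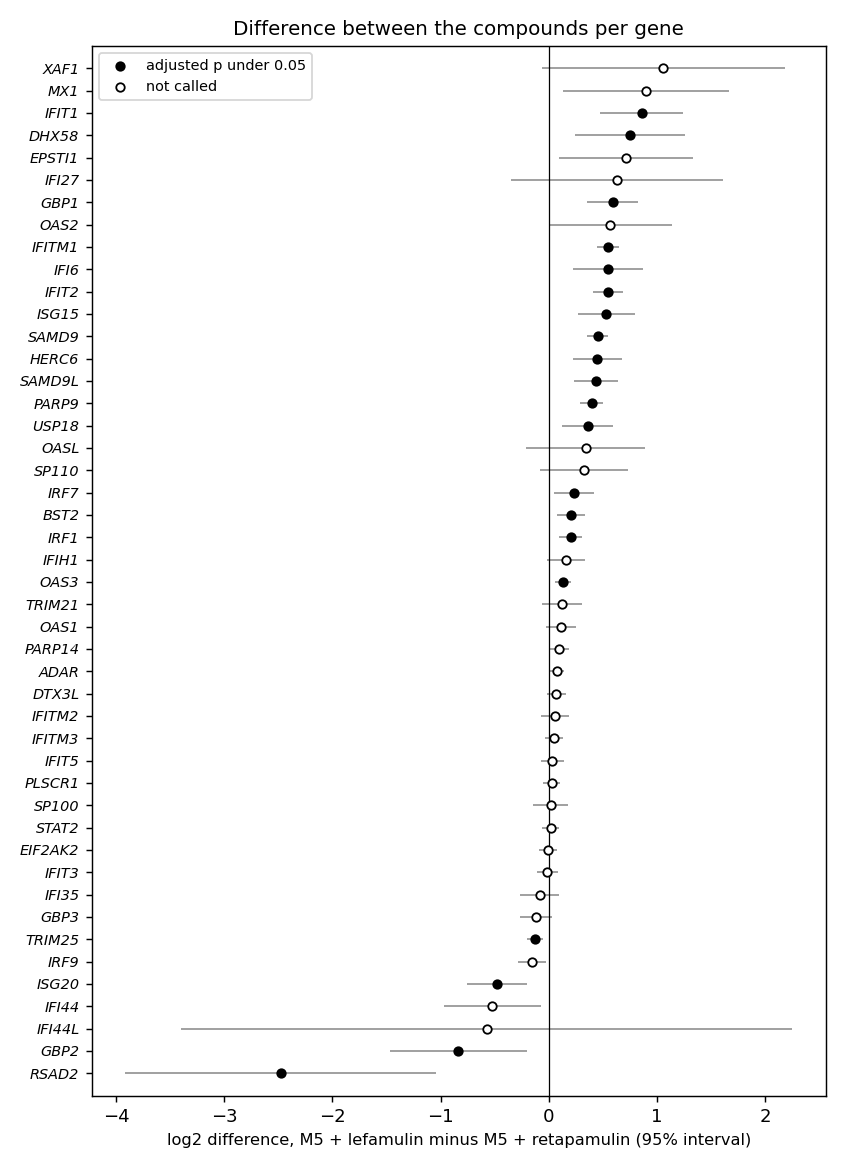
Difference between M5 with lefamulin and M5 with retapamulin for each of the 46 members tested, on the log2 scale with 95% intervals, ordered by size. Filled points were called at an adjusted p under 0.05: 16 lie right of 0 (higher with lefamulin) and 4 left of it.

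Levels with a compound were also set against untreated cells. With M5 and lefamulin 18 members were higher than untreated (39.1%, all genes 36.9%) and 20 lower (43.5%, all genes 37.1%), with a median of -0.01 (all genes -0.02). With M5 and retapamulin 14 were higher (30.4%, all genes 37.6%) and 26 lower (56.5%, all genes 40.9%), with a median of -0.29 (all genes -0.06). On library totals, where the medians of all genes were -0.18 and -0.31, the counts were 13 higher and 22 lower, and 10 higher and 30 lower. There 4204 of the 14207 genes were higher and 6677 lower with lefamulin, and 3891 were higher and 7657 lower with retapamulin. With lefamulin the shares of members on this scale were near those of all genes. ISG20 was 21.3-fold and 29.6-fold above untreated, STAT2 2.34-fold and 2.31-fold, and PLSCR1 1.85-fold and 1.82-fold, with lefamulin and retapamulin in that order. IFIT1 was 14.2-fold and 25.7-fold below untreated, EPSTI1 7.67-fold and 12.6-fold, GBP1 2.95-fold and 4.44-fold, and IFI44 4.18-fold and 2.91-fold. OASL was 1.72-fold and 2.18-fold below untreated; without untreated replicate 3 its difference with lefamulin was -0.47 (adjusted p = 0.0512; 6.3e-05 to 0.0512 over the alternatives).

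Per length, the members spanned from 0 FPKM (HERC5) to 680.5 FPKM. In untreated cells IFITM3 was followed by IFITM1 (78.4 ± 5.86 FPKM), ADAR (56.8 ± 2.87) and BST2 (51.8 ± 3.60), of which the last 2 lay within about their spread of each other. With M5 the order was IFITM3 (680.5 ± 13.2 FPKM), IFITM1 (141 ± 3.54), ADAR (59.0 ± 0.449) and PLSCR1 (56.9 ± 1.48), and the last 2 again differed by little more than their spread. At the other end 14 members in untreated cells, 12 with M5, 15 with lefamulin and 16 with retapamulin were under 1 FPKM, among them MX1, MX2, OAS2, RSAD2, XAF1, EPSTI1, IFI27 and IFI44L in every group.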

How the data were processed

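Gene-level read counts from 12 RNA-seq libraries of HaCaT cells (4 groups of 3) were deposited with FPKM for the same genes. Alignment and counting used HISAT2 and HTSeq per the submitters' processing notes, without versions; the sources used here give neither genome build nor strand setting. The deposited FPKM equal each count divided by gene length and column total, so they carry no scaling for composition, and were used only to compare levels between genes and as an alternative. Counts were tested with edgeR 4.0.16 in R 4.3.3 (TMM, filterByExpr with the groups, quasi-likelihood fit of all 12 libraries, 1 mean per group), with Benjamini-Hochberg adjustment over 14207 genes, and calls at an adjusted p under 0.05. Totals of 35110519 to 37520999 counts a library set the precision, and 95% counting intervals cover counting error only. The script was tested on simulated counts first.

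In all, 6 comparisons were made: M5, lefamulin and retapamulin against untreated, each compound against M5, and the compounds against each other. The members and the other gene lists were chosen with earlier results of these data known, so their counts are descriptions. All 49 members were accounted for by role. Values in every library were printed for members called with a change of at least 1 on the log2 scale and a group mean of at least 1 CPM in M5 against untreated or a compound against M5, and for the member with the largest change in each role. From each further list up to 2 called genes per direction and comparison, by size of change, were named, with any interferon gene reaching 3 counts in a library; some genes this rule names are not reported here, and other genes named were chosen after their values were seen. Alternatives were RLE, library totals alone, DESeq2 1.42.0, no low-count filter, at least 1 CPM in 3 libraries, a fit of the 2 groups compared, the replicate number as a block, limma 3.58.1 on log2(FPKM + 1) and log2(FPKM + 0.1), and each library left out. Of the members, 13 overlap another gene of the table in RefSeq.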

Additional observations from a re-analysis of the deposited data

How the results depend on the processing

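Counts of members called in each direction stayed within 1.5 times the reported count, with these exceptions. In M5 against untreated 16 members were lower on library totals and on both FPKM scales, against 9. Between the compounds 27 members were higher with lefamulin on library totals, 26 on log2(FPKM + 1) and 27 on log2(FPKM + 0.1), against 16, and 2 were lower on library totals, 2 in the fit of 2 groups, 1 on log2(FPKM + 1) and 1 on log2(FPKM + 0.1), against 4. With retapamulin 9 members were higher than untreated on log2(FPKM + 1), against 14. Leaving out each library in turn gave 19 to 22 higher and 8 to 10 lower for M5 against untreated, 10 to 11 and 26 for lefamulin against M5, 9 to 10 and 29 to 31 for retapamulin against M5, 13 to 17 and 3 to 5 for lefamulin against retapamulin, 16 to 19 and 18 to 20 for lefamulin against untreated, and 14 to 17 and 22 to 25 for retapamulin against untreated. Changes called in the reported fit or under the alternative turned direction on library totals, log2(FPKM + 1) and log2(FPKM + 0.1), which carry no scaling for composition, and in no other alternative run; changes called in neither also turned sign elsewhere. In that order TRIM25 in retapamulin against M5 became -0.0309, -0.0294 and -0.0302. Against untreated with lefamulin TRIM25 became -0.0235, -0.0222 and -0.0228, IFITM3 -0.0412, -0.0399 and -0.0400 and DTX3L -0.145, -0.135 and -0.142. Against untreated with retapamulin IFIT3 became -0.0597, -0.0556 and -0.0595, IFITM1 -0.196, -0.191 and -0.193, IFITM2 -0.143, -0.134 and -0.138 and IFITM3 -0.177, -0.175 and -0.176. The labels number the libraries of each group alike. Over 18 pairs with the same number the deviations from the group means correlated at -0.14 to 0.18, and 3 pairs were over 0.1. Over 36 pairs with different numbers they correlated at -0.27 to 0.26, and 5 pairs were over 0.1. These correlations cannot tell whether equal numbers mark shared cultures, because the deviations may hold technical spread alone. With the replicate block 15 members were higher with lefamulin than with retapamulin, IRF7 losing its call (adjusted p = 0.0501), and the block changed no other call of a member. Leaving out 1 library ended calls of members at low and at higher levels alike.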
